A study of Mus musculus with 61 samples.

Results

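The transcripts of 39 genes of double-strand break and crosslink repair were followed in 61 single cells of the mouse ovary. The genes were a list of 3 repair routes matched by symbol to the deposited table of 23927 gene rows: 20 genes of homologous recombination, 10 Fanconi genes and 9 genes of end joining. All 39 had a row. The rule used gene names and no measured value, although the list was drawn up with earlier results of these data known. The cells came from wild-type (WT) CD-1 mice, an outbred stock, at postnatal day 5, which had received solvent or doxorubicin into the peritoneum 6 hours before. The groups were 16 control oocytes, 16 doxorubicin oocytes, 16 control granulosa cells and 13 doxorubicin granulosa cells. The dose is not given here, because the unit in the labels is not a unit of dose. The labels name no animal, litter or culture for any cell, so each of the 4 groups counted as 1 sample. No difference was therefore tested, and values are described only.

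Doxorubicin is a chemotherapy drug that traps topoisomerase II on DNA and so leaves double-strand breaks. Homologous recombination cuts back the broken ends and copies the sequence from an intact partner chromatid or homologue, and oocytes used the same machinery for meiotic exchange before birth. End joining seals broken ends directly, and the Fanconi pathway opens crosslinks between strands so that recombination can finish the repair. Oocytes of this age rest in meiotic prophase inside primordial follicles, where unrepaired breaks can lead to their death. Granulosa cells are the somatic cells around them.

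Levels are given as CPM, a gene's counts scaled to a total of 1000000 over all genes. A group's CPM is its summed count over its summed total, and the difference between groups is the log2 ratio of these CPM. The 95% intervals cover counting error only. The libraries were amplified by PCR with no molecular identifier, so reads of 1 molecule can repeat. How far 1 cell carried a ratio is shown by the range over leaving out each cell in turn. Cells that belong to a group are described by their lowest, median and highest CPM.

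Total counts per cell lay between 6834594 and 31262609, and the deepest cell was control oocyte 16. The labelled cell types were checked on 19 markers each. The oocyte marker sum had medians of 43749 CPM (control) and 31722 CPM (doxorubicin) over oocytes and of 1445 CPM (control) and 9168 CPM (doxorubicin) over granulosa libraries. In granulosa cell libraries the oocyte sum reached 41371 CPM, and granulosa markers outweighed oocyte markers in 11 of 16 control and 5 of 13 doxorubicin libraries. The granulosa sum had medians of 3952 CPM and 1861 CPM in these groups. The granulosa and stroma markers together reached 200 CPM or more in 8 of 16 control and 6 of 16 doxorubicin oocytes. Ratios are therefore also given for the libraries below or above these marker limits, called marker-filtered below, and the part of the other cell type in any ratio was otherwise not tested. The granulosa limit used no stroma or blood markers. Control granulosa cell 16 (stroma sum 4384 CPM, granulosa sum 881 CPM) and doxorubicin granulosa cell 13 (7961 CPM and 1275 CPM) passed it. Doxorubicin granulosa cell 15, with a blood sum of 33378 CPM, passed as well. Marker-filtered granulosa libraries can thus hold other cell types. For doxorubicin oocyte 4 the submitters report lost raw reads, while its counts stand in the table and were used.

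More of the repair list was detected in an oocyte than in a granulosa cell, as was so for all genes. A control oocyte had at least 5 counts for 31 to 39 of the 39 genes, with a median of 37. A doxorubicin oocyte had 32 to 39, with a median of 36. Control granulosa cells had 4 to 24, with a median of 15, and doxorubicin granulosa cells had 7 to 26, with a median of 14. Thinning every cell to 5000000 counts left these medians at 37, 35.5, 15 and 14. The summed level of the 39 genes was 2889 CPM (control) and 2834 CPM (doxorubicin) for oocytes, and 1388 CPM (control) and 1236 CPM (doxorubicin) for granulosa cells. As a share of the list, the median control oocyte detected 94.9% and the median control granulosa cell 38.5%. Over the 13148 genes with a mean of 2 CPM in the 2 control groups these shares were 83.8% and 50.8%. Of the 39 genes, 37 had at least 5 counts in 75% or more of the control oocytes and 4 in control granulosa cells, against 78.2% and 28.6% of those 13148 genes. All 10 Fanconi genes had at least 5 counts in 75% or more of the control oocytes, and none did in control granulosa cells.

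**Figure D1:**
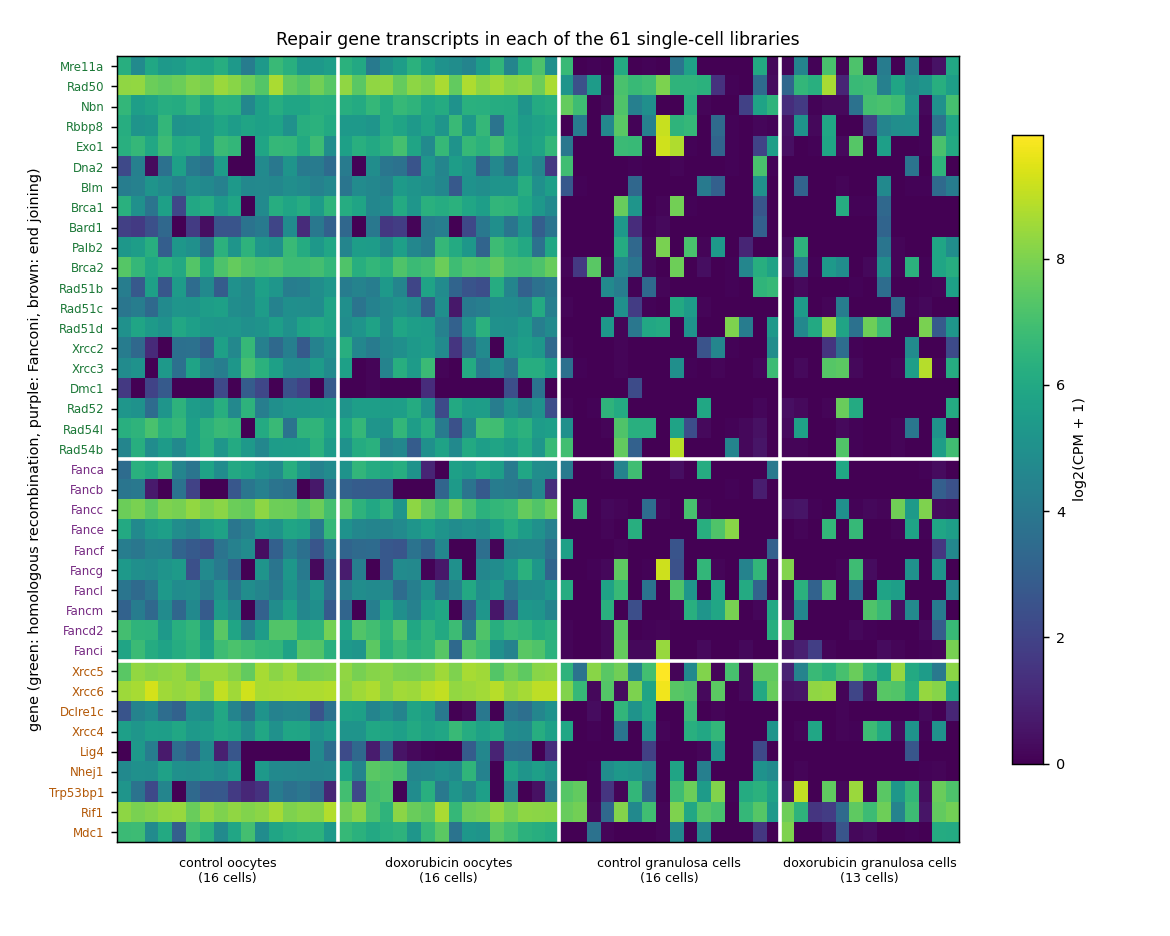
Heat map of the 39 repair genes (rows, grouped by route) in the 61 cells (columns, grouped by cell type and treatment), coloured by log2(CPM + 1). Both oocyte blocks are filled almost throughout, with 37 of 39 genes detected in a median control oocyte, while both granulosa blocks are patchy, with medians of 15 and 14. All genes were also detected less often in granulosa cells (50.8% against 83.8% in a median control cell).

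In oocytes, the medians of the 3 routes stood close to their control level 6 hours after doxorubicin, and 2 genes of end joining were past 2-fold. These were Trp53bp1, whose protein binds chromatin beside a break and holds back end resection, and Nhej1, whose protein (XLF) aligns the ends for ligation. Of the 38 genes that passed a mean of 2 CPM over both groups, 2 were at least 2-fold higher and 0 were at least 2-fold lower. Among all 12449 genes that passed the same limit, 7.29% were at least 2-fold higher and 3.06% at least 2-fold lower. Both repair genes also reached 5 CPM in the higher group with 1 sign over leaving out each cell, as did 5.57% of all genes on the higher and 2.18% on the lower side. By either rule, 2 of 38 is not above the share of all genes on the higher side. The median log2 ratio was 0.08 for homologous recombination (19 genes), -0.02 for the Fanconi genes (10) and 0.21 for end joining (9), against 0.01 for all genes. The middle of all genes, between the quartiles, ran from -0.25 to 0.28. Markers of other cell types also differed between the oocyte groups. The median log2 ratio was 0.70 over granulosa markers (15 of 19 above 0), 2.87 over endothelial markers (6 of 7) and 2.36 over blood markers (4 of 5). The endothelial sum was at most 135 CPM and the blood sum at most 79.3 CPM in any oocyte, and their part in the repair gene ratios was not tested. The order of the routes is not a finding. Only 5 of 9 end joining genes were above 0, as were 51.4% of all genes, and the 3 medians lie between those quartiles.

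**Figure D2:**
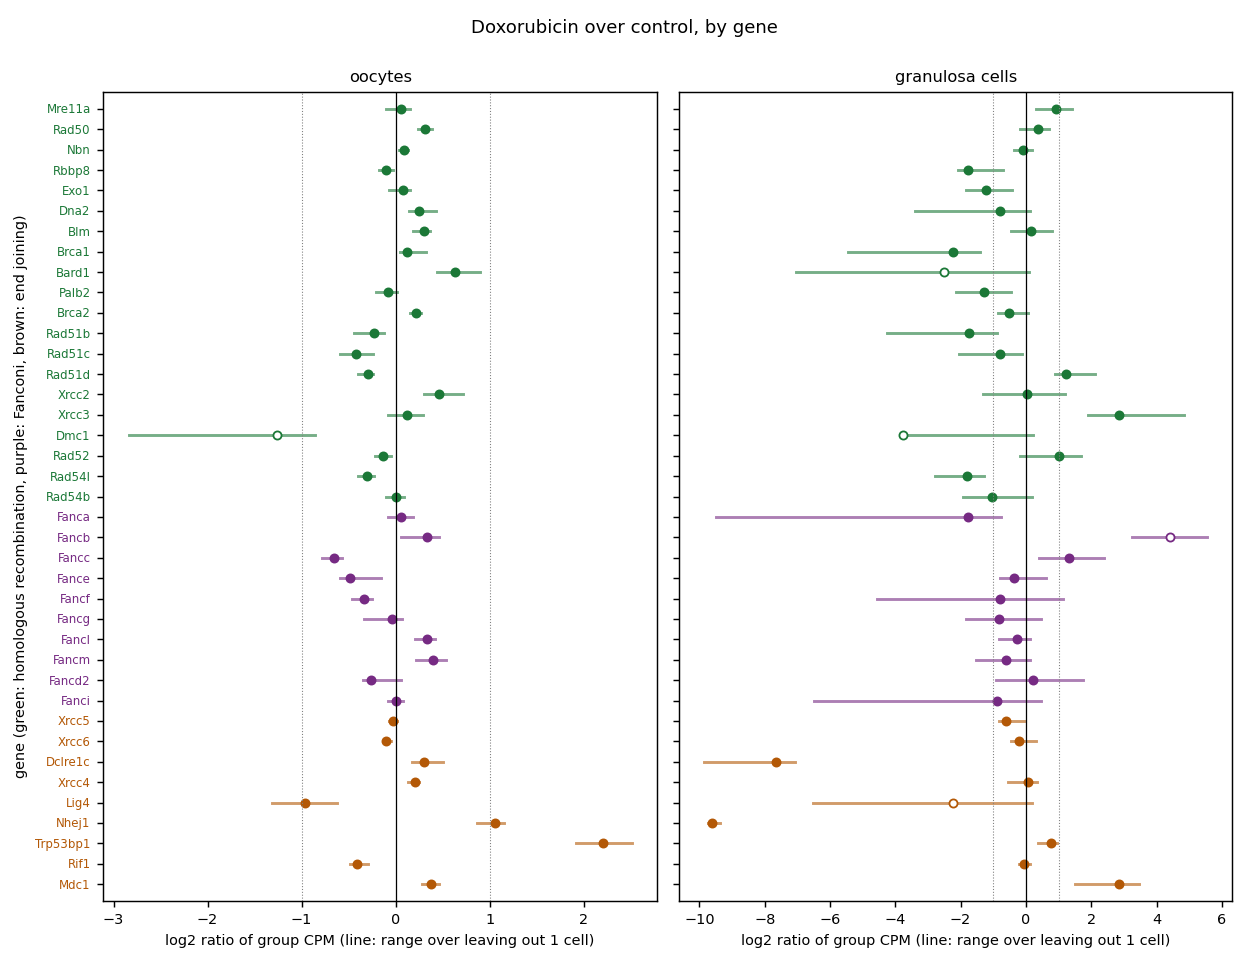
Log2 ratio of group CPM, doxorubicin over control, for each repair gene in oocytes (left) and granulosa cells (right). Points are group ratios (open: under the mean of 2 CPM), lines the range over leaving out 1 cell, and dotted lines mark a 2-fold difference. Trp53bp1 at 2.21 and Nhej1 at 1.06 stand past 2-fold in oocytes. The scale of the granulosa panel is wider, and its lines are longer.

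Trp53bp1 was the gene of the list with the largest ratio in oocytes. It lies at chr2:121193281-121271407 on the minus strand (mm10, ENSMUSG00000043909.16). Control oocytes held 0 to 35.3 CPM, with a median of 7.69 CPM, and doxorubicin oocytes 0 to 140 CPM, with a median of 21.9 CPM. The groups overlapped, but 6 of 16 doxorubicin oocytes were above the highest control oocyte. These were doxorubicin oocytes 1 (124 CPM), 3 (127 CPM), 4 (140 CPM), 7 (77.0 CPM), 9 (35.7 CPM) and 11 (48.2 CPM). Among all genes past the limit, 4.55% had at least 6 doxorubicin oocytes above every control oocyte. The group level went from 9.12 CPM to 42.2 CPM, a log2 ratio of 2.21 (2.14 to 2.29). It ranged from 1.92 without doxorubicin oocyte 4 to 2.51 without control oocyte 1, and was 2.02 over marker-filtered oocytes. As a difference between the medians of log2(CPM + 1) over cells it was 1.43. Granulosa libraries held more of this transcript than control oocytes (78.5 CPM), and doxorubicin oocytes 9 and 11 had granulosa marker sums of 3156 CPM and 2635 CPM. An exon of Trp53bp1 overlaps Tubgcp4 on the opposite strand, and Tubgcp4 had a log2 ratio of -0.36 in oocytes.

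Nhej1 lies at chr1:74967139-75125200 on the minus strand (ENSMUSG00000026162.7). Its range was 0 to 51.4 CPM in control oocytes and 0 to 169 CPM in doxorubicin oocytes, with medians of 28.6 CPM and 35.1 CPM. The centres of the groups were thus close, and the difference lay in an upper tail. Doxorubicin oocytes 3 (169 CPM), 4 (148 CPM), 5 (132 CPM), 10 (91.2 CPM), 1 (57.0 CPM) and 13 (54.8 CPM) were above every control oocyte. The group level went from 28.6 CPM to 59.6 CPM, a log2 ratio of 1.06 (1.01 to 1.11). Leaving out doxorubicin oocyte 3 took it under 2-fold, to 0.87, and the equal-weight mean of the cells gave 0.99. Over marker-filtered oocytes it was 1.44, while the difference of the cells' medians was 0.29. No other gene of the table shares an exon with Nhej1.

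The cells of that tail were set beside Cdkn1a, a p53-family target that codes for the cell cycle inhibitor p21. Control oocytes held 0.079 to 42.0 CPM of Cdkn1a and doxorubicin oocytes 7.90 to 289 CPM, with medians of 16.1 CPM and 115 CPM. In doxorubicin oocytes 3, 4, 5 and 10, which led Nhej1, Cdkn1a stood at 235, 268, 289 and 241 CPM. Oocytes 1 and 13 had 128 CPM and 50.2 CPM of Cdkn1a. Doxorubicin oocyte 12 went the other way, with 269 CPM of Cdkn1a and 0 CPM of Nhej1. Doxorubicin oocytes 6, 9 and 11 had 103, 158 and 133 CPM of Cdkn1a. Their Nhej1 levels of 22.5, 25.6 and 20.3 CPM lay within the control range. Granulosa marker sums were 3156, 2635 and 1974 CPM in doxorubicin oocytes 9, 11 and 12. For Trp53bp1, oocyte 7 was above every control oocyte with only 7.90 CPM of Cdkn1a. Doxorubicin oocytes 1, 3 and 4 were above every control oocyte in both repair genes.

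The promoters of these 2 genes and of Fancc, which was below every control oocyte in 7 doxorubicin oocytes, are shown as examples. Each runs from 250 bases before to 50 bases after the RefSeq start (GRCm38.p6), 5′ to 3′ on the gene's strand. They lie at chr2:121271358-121271657, chr1:75125177-75125476 and chr13:63431696-63431995, all on the minus strand. The GENCODE M21 model of Fancc spans chr13:63285043-63497278. The Fancc stretch thus lies inside that model and not at its 5′ end. Capitals mark a CCAAT box, read here on the other strand as ATTGG.
Trp53bp1: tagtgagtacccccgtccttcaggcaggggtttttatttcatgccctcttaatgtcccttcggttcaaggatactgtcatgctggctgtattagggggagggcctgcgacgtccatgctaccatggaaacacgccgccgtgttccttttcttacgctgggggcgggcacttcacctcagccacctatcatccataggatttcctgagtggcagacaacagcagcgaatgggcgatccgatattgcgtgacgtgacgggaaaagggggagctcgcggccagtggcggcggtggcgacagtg
Nhej1: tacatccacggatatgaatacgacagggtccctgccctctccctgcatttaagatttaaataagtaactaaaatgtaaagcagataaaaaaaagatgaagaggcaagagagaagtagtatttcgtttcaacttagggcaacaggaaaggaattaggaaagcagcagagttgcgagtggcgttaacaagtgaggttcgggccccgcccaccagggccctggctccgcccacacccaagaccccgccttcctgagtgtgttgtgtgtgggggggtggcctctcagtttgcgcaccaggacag
Fancc: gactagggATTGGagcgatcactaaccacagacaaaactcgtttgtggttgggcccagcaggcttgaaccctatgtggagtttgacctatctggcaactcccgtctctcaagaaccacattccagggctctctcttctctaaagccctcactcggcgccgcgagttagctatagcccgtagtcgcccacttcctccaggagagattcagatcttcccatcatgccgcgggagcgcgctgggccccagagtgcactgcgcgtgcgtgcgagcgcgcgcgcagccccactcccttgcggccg

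Short motifs, 4 in all, were searched in the promoters on both strands. CCAAT was found in 17 of the 30 repair genes with a RefSeq promoter and in 37.9% of all 27025 promoters. GGCGGGAA, an E2F core, was found in 3 of 30 (Fancb, Fancm and Mdc1) and in 2.24% of all. TTTGAA was found in 1 of 30 (Bard1) and in 18.1% of all. A strict form of the paired p53 core, CATG then 6 bases of any kind then CATG, was found in 0 of 30 and in 0.770% of all. The promoters of Trp53bp1 and Nhej1 held none of the 4 letter strings. These are matches of letters and not binding sites.

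The remaining end joining genes were under 2-fold over all oocytes, Lig4 only just so. Xrcc6 and Xrcc5 (Ku70 and Ku80), the ring that loads onto a broken end, had log2 ratios of -0.10 and -0.03. Xrcc4, the scaffold of the ligase, had 0.21, and Dclre1c (Artemis), the nuclease that opens hairpin ends, had 0.30. Lig4, the ligase that seals the ends, went from 9.29 CPM to 4.75 CPM, a log2 ratio of -0.97 (-1.09 to -0.85). Its cells spanned 0 to 39.3 CPM in control and 0 to 23.3 CPM in doxorubicin oocytes, so the ranges overlapped, with 3 control oocytes above the highest doxorubicin oocyte. The ratio was -0.62 without control oocyte 2, which held 26.1% of the control count, and -1.36 over marker-filtered oocytes.

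Chromatin factors of the break split in direction. Rif1, which acts with 53BP1 to limit resection, was at 206 to 451 CPM in control oocytes (median 297 CPM) and 88.6 to 417 CPM in doxorubicin oocytes (median 230 CPM). Its log2 ratio was -0.41 (-0.43 to -0.40), and 5 of 16 doxorubicin oocytes were below the lowest control oocyte. Among all genes, 4.93% had at least 5 such cells. Doxorubicin oocytes 3 and 4 had Rif1 at 139 CPM and 88.6 CPM, so they were low in Rif1 and high in Trp53bp1 and Nhej1. Doxorubicin oocyte 1, also high in both genes, had Rif1 at 224 CPM, within the control range. The other oocytes low in Rif1, doxorubicin oocytes 6, 7 and 9, had Nhej1 at 22.5, 24.2 and 25.6 CPM, within its control range. Of these, oocytes 7 and 9 were above every control oocyte in Trp53bp1. Mdc1, which reads the phosphorylated histone mark at breaks, had a log2 ratio of 0.38 (0.35 to 0.42).

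**Figure D3:**
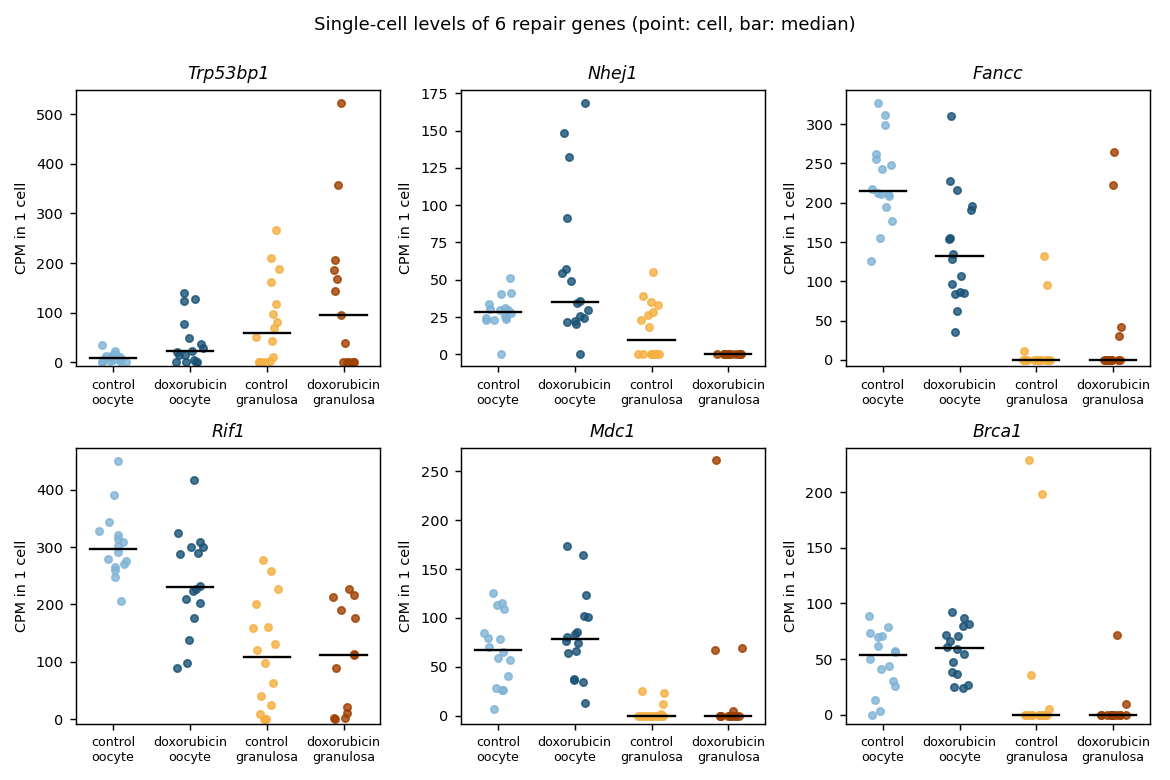
CPM of 6 repair genes in every cell (points) of the 4 groups, with the median of each group (black bar). Trp53bp1 and Nhej1 show an upper tail in doxorubicin oocytes, Fancc and Rif1 lie lower there, and Mdc1 and Brca1 are at 0 in most granulosa cells.

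Fancc stood lowest among the Fanconi genes past the limit. It codes for a subunit of the core ligase complex that marks FANCD2 and FANCI. Control oocytes held 126 to 327 CPM (median 215 CPM) and doxorubicin oocytes 35.1 to 311 CPM (median 132 CPM). Doxorubicin oocytes 2, 3, 4, 5, 11, 12 and 13 were below every control oocyte, which is 7 of 16, a count that 1.41% of all genes reached. The log2 ratio was -0.66 (-0.68 to -0.64), between -0.79 and -0.57 over leaving out each cell, and -0.98 over marker-filtered oocytes. It did not reach 2-fold. The overlapping gene on the opposite strand, Gm16133, was under 1.41 CPM in each of the 4 groups.

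Other core subunits lay on both sides of 0 in oocytes. Fance was at -0.48, but -0.15 without control oocyte 16, which held 33.2% of its control count, and Fancf was at -0.34. Fancg was at -0.04 and Fanca at 0.06. Fancb was at 0.33, Fancl, the ligase subunit, at 0.34, and Fancm, the translocase that anchors the complex to DNA, at 0.39. Of the pair that the complex marks, Fanci was at 0.00 and Fancd2 at -0.26, and Fancd2 turned to 0.06 without control oocyte 16.

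Homologous recombination genes ran from -0.42 to 0.63 in oocytes, with 12 of 19 above 0, where 51.4% of all genes were. Of the end resection genes, Rad50, the coiled-coil subunit of the MRN sensor, was at 157 to 417 CPM in control and 170 to 422 CPM in doxorubicin oocytes, a log2 ratio of 0.32 (0.30 to 0.33). It was 0.07 over marker-filtered oocytes. Its partners Mre11a, the nuclease, and Nbn were at 0.06 and 0.09. Blm, a helicase, was at 0.30 and Dna2, a helicase and nuclease, at 0.24. Exo1, an exonuclease, was at 0.08 and Rbbp8 (CtIP), which starts the cut, at -0.10.

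Among the BRCA mediators of homologous recombination, Bard1, the partner of BRCA1, had the largest ratio at 0.63 (0.53 to 0.74), from 6.91 CPM to 10.7 CPM. Brca2 was at 0.21, Brca1 at 0.12 and Palb2, which joins them, at -0.08. A group of 5 cofactor genes of strand invasion was at 0.47 (Xrcc2), 0.12 (Xrcc3), -0.23 (Rad51b), -0.30 (Rad51d) and -0.42 (Rad51c). Rad51d was below every control oocyte in 7 of 16 doxorubicin oocytes, a count that 1.41% of all genes reached. They ran from 7.64 CPM in doxorubicin oocyte 9 to 30.74 CPM in doxorubicin oocyte 13, against a lowest control oocyte of 30.99 CPM. Doxorubicin oocyte 9 had a granulosa marker sum of 3156 CPM. Of the strand exchange genes, Rad54b was at 0.00, Rad52 at -0.14 and Rad54l at -0.31.

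Dmc1, the meiotic recombinase, was the 1 gene under the limit of 2 CPM. Control oocytes held 0 to 6.48 CPM (median 2.49 CPM) and doxorubicin oocytes 0 to 12.9 CPM (median 0 CPM). Its log2 ratio was -1.26, and -2.84 without doxorubicin oocyte 15, which held 68.5% of the counts of its group. In a further list of 50 genes of the same pathways, 0 of the 49 past the limit were 2-fold higher and 0 lower, with a median log2 ratio of -0.0011.

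In granulosa cells the ratios after doxorubicin were wide, as they were for all genes. Of the 35 repair genes past the limit, 5 were at least 2-fold higher and 10 at least 2-fold lower. Among all 13012 genes these shares were 20.8% and 20.4%. When 5 CPM in the higher group and 1 sign were asked over leaving out each cell, 4 repair genes were higher and 9 lower, against 16.5% and 15.3% of all genes. The median log2 ratio was -0.66 for homologous recombination (18 genes), -0.62 for the Fanconi genes (9) and -0.14 for end joining (8), against -0.03 for all genes, whose quartiles were -0.78 and 0.77. Over marker-filtered libraries the 3 medians were -0.16, -0.03 and 0.13. The median over cell cycle genes was -0.60 in the same comparison, and the median over oocyte markers was 1.96. Their part in the repair gene ratios was not tested. Of the 35 ratios, 18 took both signs over leaving out each cell. The share of all genes that did so was not computed, so this count is not a trait of the repair list.

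Most repair transcripts were unevenly spread over granulosa cells. The cell with the highest CPM of a repair gene held a median of 47.1% of its group's count in control and 51.6% in doxorubicin granulosa cells, against 11.3% in control oocytes. Over all genes past the limit these medians were 34.8%, 39.6% and 12.1%. Some repair genes were spread more widely, such as Rif1 and Xrcc5, each detected in 13 of 16 control and 13 of 13 doxorubicin granulosa cells. The cell median was under 1 CPM for 27 of 39 genes in control and 29 of 39 in doxorubicin granulosa cells. That share was not computed over all genes. Control granulosa cell 8 topped 8 of the genes, among them Rbbp8 (55.4% of the group's count), Palb2 (47.5%), Exo1 (45.7%), Fancg (61.9%) and Fanci (63.5%). That library detected 9 of the 39 genes and had an oocyte marker sum of 15414 CPM, a granulosa sum of 2553 CPM and a stroma sum of 8404 CPM.

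Nhej1 had the widest granulosa ratio and the opposite sign to oocytes. Control granulosa cells held 0 to 55.5 CPM (median 9.32 CPM), with at least 5 counts in 8 of 16 cells. Doxorubicin granulosa cells held 0 to 0.104 CPM, and 0 of 13 reached 5 counts. Taking the 13 cells as independent draws, the approximate 95% upper limit on the share of cells with 5 counts is 23.1%. The labels name no animal for any cell, so that independence was not tested. The group levels were 16.4 CPM and 0.021 CPM, where the latter is 3 counts in all. The log2 ratio was -9.61 (-11.89 to -8.07) and lay between -9.72 and -9.37 over leaving out each cell. It was -8.84 over marker-filtered libraries, and -2.20 as a difference of the cells' medians. The 8 control cells with the transcript had oocyte marker sums of 385 to 2540 CPM.

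Dclre1c was also near 0 after doxorubicin in granulosa cells. Control cells 10 (107 CPM), 5 (93.7 CPM), 7 (61.8 CPM) and 6 (33.9 CPM) held it and the other 12 did not reach 5 counts. In doxorubicin cells the highest was 1.12 CPM. The log2 ratio was -7.65 (-8.49 to -6.92). With 4 of 16 control cells carrying it, the cells' medians were 0 in both groups. The remaining end joining genes were at 0.05 (Xrcc4), -0.22 (Xrcc6), -0.61 (Xrcc5) and -0.05 (Rif1).

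Mdc1 and Trp53bp1 were on the higher side. Mdc1 had a cell median of 0 CPM in control cells, with a highest of 25.2 CPM, and a highest of 261 CPM in doxorubicin cells. Its log2 ratio was 2.83 (2.72 to 2.95), and 1.49 without doxorubicin granulosa cell 1. That library held 63.4% of the count and the highest oocyte marker sum of its group, 41371 CPM, and control oocytes held 64.3 CPM of Mdc1. Trp53bp1 went from 78.5 CPM to 132 CPM, a log2 ratio of 0.75 (0.72 to 0.78). Its cells spanned 0 to 267 CPM in control and 0 to 523 CPM in doxorubicin granulosa cells, so the groups overlapped.

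Of the BRCA mediators, Brca1 was lower. Control granulosa cells 9 (229 CPM), 5 (198 CPM) and 6 (35.8 CPM) carried nearly all of it. These cells had cell cycle sums of 4388, 10427 and 8492 CPM. Control cells 1 and 16 and doxorubicin cells 15 and 16, also above 3000 CPM, held 0 CPM of Brca1. In doxorubicin granulosa cells Brca1 was mainly in cell 7, at 71.3 CPM. That cell had a cell cycle sum of 720 CPM and an oocyte marker sum of 12696 CPM. The log2 ratio was -2.23 (-2.33 to -2.12). It was -1.40 without control granulosa cell 9 and -5.46 without doxorubicin granulosa cell 7. Over marker-filtered libraries, which leave out doxorubicin cell 7, it was -9.68, with at most 0.076 CPM in any such doxorubicin cell. Palb2 was at -1.29 and Brca2 at -0.52, while Bard1 (2.98 CPM to 0.524 CPM) was under the limit.

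The strand invasion cofactors parted in direction in granulosa cells. Xrcc3 went from 10.4 CPM to 74.6 CPM, a log2 ratio of 2.84 (2.77 to 2.91), with 52.96% of the count in doxorubicin granulosa cell 14. Rad51d went from 36.1 CPM to 84.8 CPM, a log2 ratio of 1.23 (1.19 to 1.28), and had at least 5 counts in 8 of 16 control and 10 of 13 doxorubicin cells. Rad51b was at -1.74 (-1.87 to -1.62), with 83.7% of the doxorubicin count in 1 cell. Rad51c was at -0.81 and Xrcc2 at 0.02.

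Of the 10 strand exchange and resection genes past the limit in granulosa cells, 4 had ratios above 0, where 48.7% of all genes did. Rad54l, a motor protein that travels along DNA, was at -1.82 (-1.92 to -1.72), and stayed between -2.78 and -1.27 over leaving out each cell. Rad54b was at -1.03 but 0.17 without control granulosa cell 9. Rad52 was at 1.00 but -0.17 without doxorubicin granulosa cell 7. Rbbp8 was at -1.78 and -0.71 without control granulosa cell 8, and Exo1 was at -1.22 and -0.43 without that cell. Dna2 was at -0.81, Nbn at -0.10, Blm at 0.16, Rad50 at 0.38 and Mre11a at 0.93, and of these Dna2, Nbn, Blm and Rad50 took both signs over leaving out each cell.

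Fanconi ratios in granulosa cells leaned on single cells as well. Fancc was higher at 1.32 (1.26 to 1.38), from 17.5 CPM to 43.8 CPM, but 0.39 without doxorubicin granulosa cell 14. Fanca was lower at -1.77, with 99.6% of the doxorubicin count in 1 cell. The others past the limit were Fanci (-0.89), Fancg (-0.83), Fancf (-0.80), Fancm (-0.62), Fance (-0.38), Fancl (-0.27) and Fancd2 (0.23). Each of these 7 turned sign when 1 cell was left out. Fancb (0.0389 CPM to 0.818 CPM), Lig4 (2.11 CPM to 0.447 CPM) and Dmc1 were under the limit. Among the 50 further genes 12 of 46 were at least 2-fold higher and 10 lower. Those named by the same rule were Swsap1 (14.3 CPM to 0 CPM) and Polq (46.9 CPM to 0.007 CPM), both lower, and Hsf2bp (0.356 CPM to 41.9 CPM) and Poll (2.17 CPM to 92.2 CPM), both higher. Over marker-filtered libraries Hsf2bp turned to lower, with a log2 ratio of -2.31 against 6.88 over all libraries. Poll was at 2.82 against 5.41, while Swsap1 was at -8.64 and Polq at -8.02. The highest Hsf2bp level, 212 CPM, was in doxorubicin granulosa cell 4, which had an oocyte marker sum of 24455 CPM. Control granulosa cell 8 held 597 CPM of Polq.

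Control oocytes held more of most repair transcripts than control granulosa cells. Of 38 genes past the limit 21 were at least 2-fold higher and 3 at least 2-fold lower, where 28.9% and 31.6% of all 13148 genes were. All of these repair genes also reached 5 CPM in the higher group with 1 sign over leaving out each cell, against 27.3% of all genes on the higher and 27.3% on the lower side. The median log2 ratio was 1.21 for homologous recombination, with 10 of 19 genes 2-fold higher and 0 lower. It was 1.41 for the Fanconi genes, with 6 of 10 higher and 2 lower, and 1.04 for end joining, with 5 of 9 higher and 1 lower. The median over all genes was -0.04 and that over cell cycle genes 0.08. In the further list, 25 of 48 genes were 2-fold higher and 3 lower. A lower share of cells with a transcript and less of it per cell cannot be told apart in these sums.

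**Figure D4:**
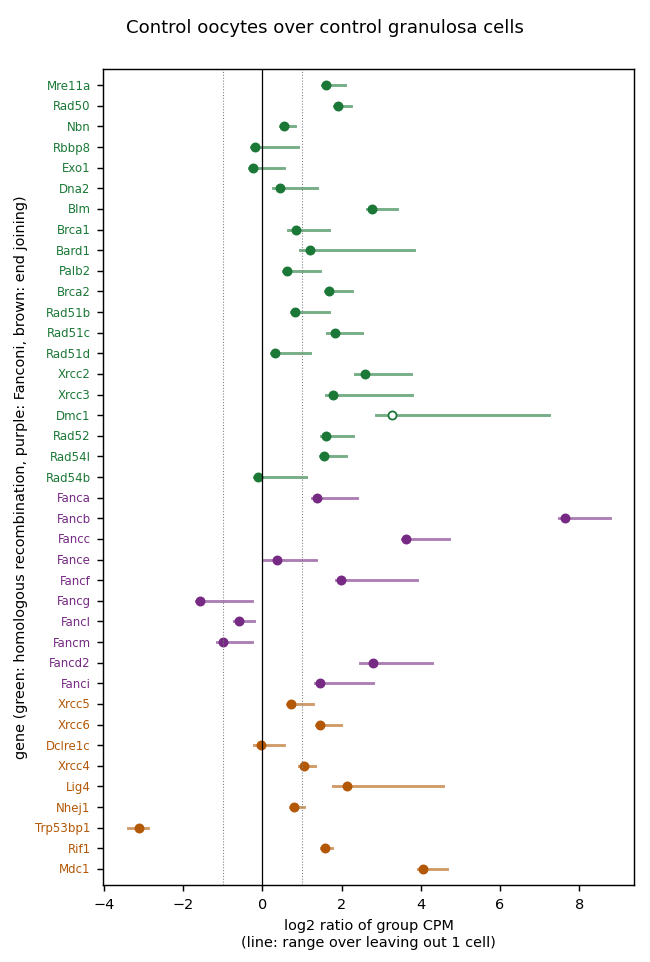
Log2 ratio of group CPM, control oocytes over control granulosa cells, for each repair gene. Points are group ratios (open: under the mean of 2 CPM), lines the range over leaving out 1 cell, and dotted lines mark a 2-fold difference. Most genes lie right of 0, Fancb is farthest right at 7.63, and Trp53bp1 is farthest left at -3.11.

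Fancb, the core subunit that pairs with the ligase, was at 0 to 19.7 CPM in control oocytes (median 8.22 CPM) and 0 to 0.729 CPM in control granulosa cells. Its log2 ratio was 7.63 (6.58 to 8.95), against a control granulosa level of 0.0389 CPM, and 10 of 16 oocytes were above every granulosa cell. Fancc, at 126 to 327 CPM in oocytes, was above 132 CPM, the highest granulosa cell, in 15 of 16 oocytes, with a log2 ratio of 3.63 (3.58 to 3.69). Mdc1 had 15 of 16 oocytes above the highest granulosa cell and a log2 ratio of 4.04 (3.94 to 4.16). The share of all genes with as many such oocytes was not computed. These counts of oocytes are therefore a description and not a trait of the repair list. Fancd2 was at 2.78, Blm at 2.76, Xrcc2 at 2.59 and Fancf at 1.98. In granulosa cells 67.2% of the Fancd2 count came from control granulosa cell 5, and the ratio without it was 4.29.

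Trp53bp1 was the lowest of the 8 repair genes with a ratio under 0 in oocytes against granulosa cells. Control granulosa cells held 0 to 267 CPM (median 59.8 CPM), against 0 to 35.3 CPM in control oocytes (median 7.69 CPM). Its log2 ratio was -3.11 (-3.18 to -3.03), and -2.75 over marker-filtered libraries. On the scale of CPM per kilobase of the longest transcript, oocytes stood at 0.948 (control) and 4.39 (doxorubicin), and granulosa cells at 8.16 (control) and 13.7 (doxorubicin). The level in doxorubicin oocytes thus stayed under that of control granulosa cells. Fancg (-1.57) and Fancm (-1.005) were the other genes 2-fold lower in oocytes. Both moved under 2-fold when 1 granulosa cell was left out, to -0.27 and -0.25, and both were higher in oocytes by the cells' medians.

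On the scale of CPM per kilobase, end joining genes led in control oocytes. Xrcc6 was at 130 CPM per kb and Xrcc5 at 112 CPM per kb. Fancc followed at 68.7, Rad50 at 46.5 and Rif1 at 37.5 CPM per kb. The highest of the other roles were Fancd2 at 20.6 (the pair marked by the core), Rad54l at 16.9 (strand exchange), Xrcc3 at 14.8 (strand invasion cofactors) and Palb2 at 13.4 (BRCA mediators). At the low end were Trp53bp1 at 0.948, Bard1 at 1.22, Dmc1 at 1.23 and Lig4 at 1.85 CPM per kb. Summed over genes, per kilobase, homologous recombination came to 245, the Fanconi genes to 168 and end joining to 334 in control oocytes.

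Among the further genes, Hsf2bp, which binds BRCA2 in meiosis, was at 130 CPM against 0.356 CPM, a ratio of 8.52. Meiob, a meiotic single-strand binding protein, was at 6.80 CPM against a single count in granulosa cells. Poll, a gap-filling polymerase of end joining, was at 41.9 CPM against 2.17 CPM.

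Granulosa libraries with many cell cycle transcripts held more of the repair list. In the 7 granulosa libraries with a cell cycle sum above 3000 CPM, 17 to 26 of the 39 genes were detected (median 22). In the other 22 libraries 4 to 20 were detected (median 12). The medians of genes detected in all were 9646 and 8932.5, and those of the oocyte marker sum 1062 CPM and 4433 CPM. Of the 7 libraries, 5 were control and 2 doxorubicin cells, and 1 of the latter, cell 15, had a blood marker sum of 33378 CPM. These libraries were set apart by a measured value and are a description only. Oocytes, at cell cycle sums of 2798 to 4496 CPM, detected at least 31 genes.

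**Figure D5:**
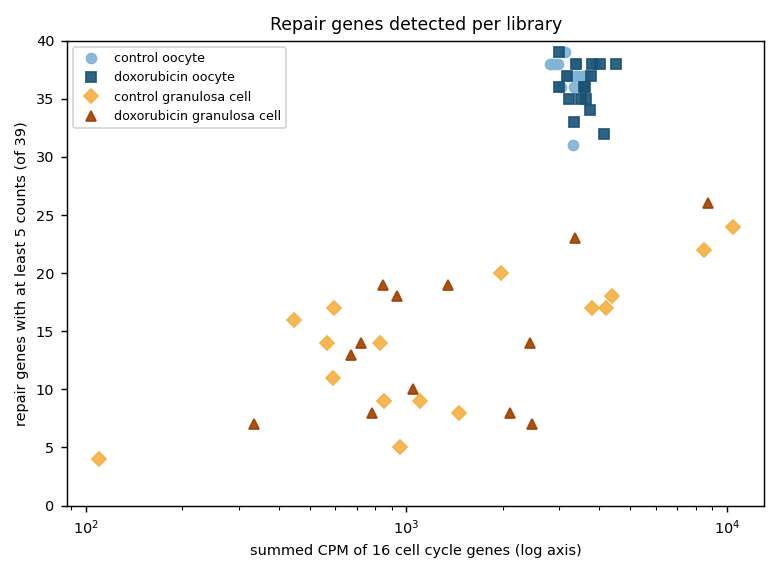
Number of the 39 repair genes with at least 5 counts (y axis) against the summed CPM of 16 cell cycle genes (x axis, log scale) in each of the 61 libraries, by group. Oocytes sit together at 31 to 39 genes, and granulosa libraries spread from 4 to 26, with 17 or more in those past 3000 CPM.

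Of the 39 genes, 14 share an exon with another gene of the table, 13 of them on the opposite strand only, and the labels do not say that counting used strand. Rad54b shares an exon with Fsbp on its own strand, and Fsbp was at or under 0.342 CPM in each group. For Fanca the partner Zfp276 had ratios of -0.76 in oocytes and 3.31 in granulosa cells, against 0.06 and -1.77 for Fanca.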

How the data were processed

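Polyadenylated RNA of single oocytes and granulosa cells was amplified with a SMART-seq kit and tagged with a Nextera kit, per the labels' protocols. Estimated counts for every gene in every cell were deposited as 1 table, with 32.3% of the nonzero values not whole (tolerance 1e-06). The submitters' processing notes name Partek, Bowtie2, HISAT2, DESeq2 and mm10, and the annotation and versions are not given in the sources used here. Of the 23927 rows, 22 carry symbols turned into dates (0.144% of counts) and stayed in the totals only.

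Estimated counts were rounded. Counts were summed per group, and a group under 3 counts was set to 3. Ratios carry exact conditional binomial (Clopper-Pearson) 95% intervals, which hold counting error only. No test was made, since each group is 1 sample. The limit on low genes was a mean of 2 CPM over the groups compared. Named genes were past 2-fold, with 5 CPM or more in the higher group and of 1 sign over leaving out each cell (up to 8 per comparison, up to 4 further genes), with the highest per kilobase in each role. All 39 were then listed. The members, lists and rules were chosen with earlier results of these data known. The calculation was tested on simulated data. Gene models came from GENCODE M21 and promoters from RefSeq. Alternatives were equal-weight and median cells, edgeR 4.0.16 and DESeq2 1.42.0 scaling, other limits, marker-filtered libraries (oocytes under 200 CPM of granulosa and stroma markers, granulosa libraries with at least as much granulosa as oocyte marker) and leaving out each cell. Python 3.11.15, numpy 2.4.6, pandas 2.3.3, scipy 1.17.1, matplotlib 3.10.9 and R 4.3.3 were used. The values of 1 further gene that the rule names are not reported here.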

Additional observations from a re-analysis of the deposited data

Results flagged for a closer look

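Of the repair genes, 5 had ratios of opposite direction after doxorubicin in the 2 cell types, each keeping its sign over leaving out every cell. The difference between the cell types was not tested. They are 5 of the 35 repair genes past the limit in both cell types, and 22.5% of all 11094 such genes met the same rule. Nhej1 had a log2 ratio of 1.06 in oocytes and -9.61 in granulosa cells. Dclre1c had 0.30 in oocytes and -7.65 in granulosa cells. Brca1 had 0.12 in oocytes and -2.23 in granulosa cells. Fancc had -0.66 in oocytes and 1.32 in granulosa cells. Rad51d had -0.30 in oocytes and 1.23 in granulosa cells.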

How the results depend on the processing

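No paired analysis was possible because the result comes from no test and each group counted as 1 sample. edgeR TMM factors left all 15 route medians and counts within their counting interval or within 1.5 times. DESeq2 size factors gave medians for control oocytes over control granulosa cells of 1.47 (Fanconi) and 1.10 (end joining). Equal-weight cells gave 0.0071 for homologous recombination in oocytes after doxorubicin, 1 gene 2-fold higher there (Trp53bp1), -0.51 for the Fanconi genes in granulosa cells and 1.52 for the Fanconi genes between cell types. With 5 CPM in either group, granulosa medians after doxorubicin were -0.81 (homologous recombination) and -0.50 (Fanconi). With no limit they were -0.81, -0.50 and -0.22 (end joining), homologous recombination between cell types was 1.39, and 1 gene, Dmc1, was 2-fold lower in oocytes.

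Cell medians gave 0.023 for end joining in oocytes. In granulosa cells they gave 0.053 (homologous recombination), 0.00 (Fanconi) and 0.0055 (end joining), with 3 genes higher (Brca2, Rad51d and Rbbp8) and 1 lower (Nhej1). Between cell types they gave 4.90, 4.77 and 1.77, with 36 genes higher and 1 lower (Trp53bp1), while the median of all genes moved to 1.39. By cell medians 18 of 39 repair genes had the sign of the summed ratio after doxorubicin in granulosa cells, 31 in oocytes and 32 between cell types. Of those past 2-fold, Rad54b (0.11) and Rbbp8 (1.97) turned to higher after doxorubicin in granulosa cells, and Fancg (4.30) and Fancm (4.25) turned to higher in oocytes.

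Marker-filtered libraries gave oocyte medians after doxorubicin of -0.017 (homologous recombination), -0.10 (Fanconi) and 0.079 (end joining), with 1 gene lower (Lig4). Granulosa medians were -0.16, -0.027 and 0.13, 27 of 39 genes kept their sign (30 in oocytes, 36 between cell types), and Exo1, past 2-fold before, turned to 0.11. Medians between cell types were 1.03, 0.88 and 1.18, with 1 gene lower (Trp53bp1). Causes were not tested.

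Over leaving out each cell, oocyte medians after doxorubicin lay at 0.024 to 0.11 (homologous recombination), -0.17 to 0.057 (Fanconi) and 0.13 to 0.25 (end joining), with 1 to 2 genes higher (1 without doxorubicin oocyte 3) and 0 to 2 lower (Lig4 and Dmc1 without control oocyte 9). Granulosa medians lay at -0.89 to -0.090, -0.74 to -0.37 and -0.33 to -0.023, with 4 to 7 genes higher and 7 to 11 lower. The -0.090 came without control granulosa cell 9 and the -0.37 without control granulosa cell 8. Medians between cell types lay at 0.95 to 1.66, 1.298 to 1.64 and 0.93 to 1.34, with 20 to 23 genes higher and 2 to 3 lower. Rad52 in granulosa cells ran from -0.17 to 1.68 and Rad54b from -1.92 to 0.17. In oocytes 37 of 39 repair genes had 5 counts in at least 75% of cells. Genes at higher group levels could still be missing from 1 oocyte. Control oocyte 10 had 0 CPM of Brca1, Rad54l, Exo1 and Nhej1, whose control oocyte levels were 52.8, 77.1, 71.4 and 28.6 CPM. The part of depth in this was not tested. Many granulosa ratios rest on few cells.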
